A study of Mus musculus with 16 samples.

Results

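The chemokines and their receptors on the Affymetrix mouse array M430A_2 were the 53 genes whose single annotated symbol began with Ccl, Cxcl, Cx3cl, Xcl, Ccr, Cxcr, Cx3cr, Xcr or Ackr followed by a digit, out of 12393 genes with a probe set of their own. They comprised 32 ligands and 21 receptors, and each gene was represented by the probe set with the highest mean over the 16 arrays. Total RNA was profiled from 4 samples of melanocytes of disease state none and from melanomas of a pair of inducible mouse models. The iMet model (6 samples) carries Tyr-rtTA, Tet-Met and loss of Ink4a/Arf (Ink4a/Arf-/-), so that MET is induced by tetracycline from the tyrosinase promoter's transactivator. The iHRAS* model (6 samples, called iRas in the sample labels) carries Tyr-rtTA, Tet-HRASV12G and the same Ink4a/Arf-/- background. Both tumour groups thus lack Ink4a/Arf, whereas the labels give no genotype, strain or age for the melanocytes and no age for the tumour animals. The labels speak of isolated melanoma cells and the design text of RNA from cutaneous melanomas, and nothing says that the samples came from separate animals, so that p-values measure the spread between these samples. The study compared the models to list genes that differ between tumours able and unable to metastasise.

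Chemokines are small secreted proteins that bind heparan sulfate on cells and matrix and draw in cells that carry the matching receptor. Their receptors are seven-helix proteins coupled to inhibitory G proteins, while the atypical receptors of the Ackr group bind chemokines without that coupling and remove or move them. Inflammatory CC ligands such as Ccl2 attract monocytes and macrophages, ligands of Cxcr2 attract neutrophils, and the interferon-inducible ligands of Cxcr3 attract activated T and NK cells. In melanoma, chemokines are made by tumour cells, fibroblasts, vessels and infiltrating leukocytes alike.

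The values are log2 signals, and a probe set was called dim on an array where its signal was at or below 6.21, the 40th percentile of all values. The 4 melanocyte arrays had macrophage markers at a mean log2 signal of 4.13 ± 0.15 (SD, n = 4), against 10.50 ± 0.26 in iMet and 9.64 ± 0.80 in iHRAS* tumours (n = 6 each). All 14 macrophage markers were above the cut-off on at least 1 array of each model, whereas 10 of 14 stayed at or below it on every melanocyte array. In these bulk samples, fewer cells of a type and less RNA per cell cannot be told apart. Pigment cell markers did not follow the labels in full. In the melanocyte arrays Tyr, Tyrp1, Dct, Oca2 and Mitf had mean log2 signals of 3.97, 4.25, 4.19, 4.66 and 5.67, all under the cut-off, and Sox10, Slc45a2 and Pmel lay above it at 9.66, 7.08 and 6.70. Fibroblast markers averaged 9.33 in the melanocyte arrays and keratinocyte markers 8.09. On melanocyte arrays 1 to 4 the fibroblast mean was 9.97, 8.50, 10.65 and 8.21. The keratinocyte mean was 7.77, 9.01, 6.82 and 8.77. Arrays 1 and 3 thus had higher fibroblast and lower keratinocyte means than arrays 2 and 4. No batch was named in the labels.

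Promoter sequence is printed for 6 ligands that the results turn on: Ccl12, Cxcl12 and Cxcl14 differed between the models, Ccl8 was the neighbour of Ccl12 that did not pass that test, and Cxcl9 and Cxcl10 varied widely among tumours of a single model. The windows are the 250 bases before the annotated start in RefSeq (GRCm38.p6), 5′ to 3′ on the gene's strand, and capitals mark matches to 5 motifs.
Ccl12 promoter, chr11:82101595-82101844, + strand: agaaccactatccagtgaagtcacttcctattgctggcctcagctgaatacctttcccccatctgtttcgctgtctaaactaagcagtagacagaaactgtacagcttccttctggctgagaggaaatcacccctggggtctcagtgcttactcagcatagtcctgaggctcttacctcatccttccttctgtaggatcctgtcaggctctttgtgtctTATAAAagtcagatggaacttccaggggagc
Ccl8 promoter, chr11:82114935-82115184, + strand: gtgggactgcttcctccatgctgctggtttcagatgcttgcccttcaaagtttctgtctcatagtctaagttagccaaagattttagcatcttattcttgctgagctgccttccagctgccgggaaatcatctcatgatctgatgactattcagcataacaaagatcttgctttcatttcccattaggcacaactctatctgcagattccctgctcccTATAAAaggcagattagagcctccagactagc
Cxcl12 promoter, chr6:117168285-117168534, + strand: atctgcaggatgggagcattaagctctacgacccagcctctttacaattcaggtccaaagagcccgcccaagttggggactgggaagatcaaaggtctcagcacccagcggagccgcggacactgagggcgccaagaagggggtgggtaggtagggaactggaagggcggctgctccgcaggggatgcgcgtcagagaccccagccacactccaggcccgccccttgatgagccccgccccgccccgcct
Cxcl14 promoter, chr13:56296552-56296801, - strand: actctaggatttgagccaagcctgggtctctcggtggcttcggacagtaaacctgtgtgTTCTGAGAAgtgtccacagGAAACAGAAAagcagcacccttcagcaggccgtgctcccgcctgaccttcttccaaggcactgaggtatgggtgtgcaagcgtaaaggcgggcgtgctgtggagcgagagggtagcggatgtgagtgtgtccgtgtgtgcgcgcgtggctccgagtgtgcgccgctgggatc
Cxcl9 promoter, chr5:92328080-92328329, - strand: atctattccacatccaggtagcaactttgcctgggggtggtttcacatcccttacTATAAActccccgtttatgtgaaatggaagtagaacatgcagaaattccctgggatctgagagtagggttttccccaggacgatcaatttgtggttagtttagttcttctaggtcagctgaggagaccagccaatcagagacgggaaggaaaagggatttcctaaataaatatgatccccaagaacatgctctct
Cxcl10 promoter, chr5:92348890-92349139, - strand: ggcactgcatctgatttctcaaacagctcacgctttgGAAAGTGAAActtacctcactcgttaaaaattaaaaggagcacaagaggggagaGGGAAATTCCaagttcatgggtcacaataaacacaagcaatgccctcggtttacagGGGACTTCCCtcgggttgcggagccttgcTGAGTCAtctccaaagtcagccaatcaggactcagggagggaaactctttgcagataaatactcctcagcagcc
The motifs were the kappaB element bound by NF-kappaB proteins, the interferon-stimulated response element (a pair of TTTC runs 2 bases apart), the gamma-activated site (TTCNNNGAA), the AP-1 site (TGANTCA), all read on both strands, and TATAAA on the sense strand. Ccl12 and Ccl8 share TATAAA at nearly the same place, with its first base 31 and 32 bases before the start. Cxcl10 holds kappaB matches starting 159 and 103 bases before the start, an interferon response element match at 213 and an AP-1 match at 74. Cxcl14 holds a gamma-activated site match at 191 and an interferon response element match at 172. Cxcl9 has TATAAA at 195, and Cxcl12 has no match to the 5 motifs in this window. Of the 53 genes, 40 had at least 1 RefSeq promoter, giving 44 windows. TATAAA occurred in 11 of the 44 (25.0%), against 7.59% of all 32851 windows, and kappaB in 8 (18.2%) against 3.90%. The interferon response element occurred in 4.55% against 2.98%, the gamma-activated site in 9.09% against 7.02%, and AP-1 in 11.4% against 6.75%. A match is a description of the letters and not a binding site.

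Above the cut-off on every array of the group were 4 of 53 in melanocytes (7.55%), 17 in iMet tumours (32.1%) and 15 in iHRAS* tumours (28.3%), while 57.8%, 57.7% and 56.6% of all 12393 genes were. On at least 1 array of the group, 22 of 53 were above it in melanocytes, 28 in iMet and 39 in iHRAS* tumours, against 68.2%, 70.3% and 73.7% of all genes. The 4 above it on every array in melanocytes were the ligands Ccl4, Cx3cl1, Cxcl12 and Cxcl14, and no receptor was among them. Of the iMet set 12 were ligands and 5 receptors, and of the iHRAS* set 11 and 4.

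**Figure D1:**
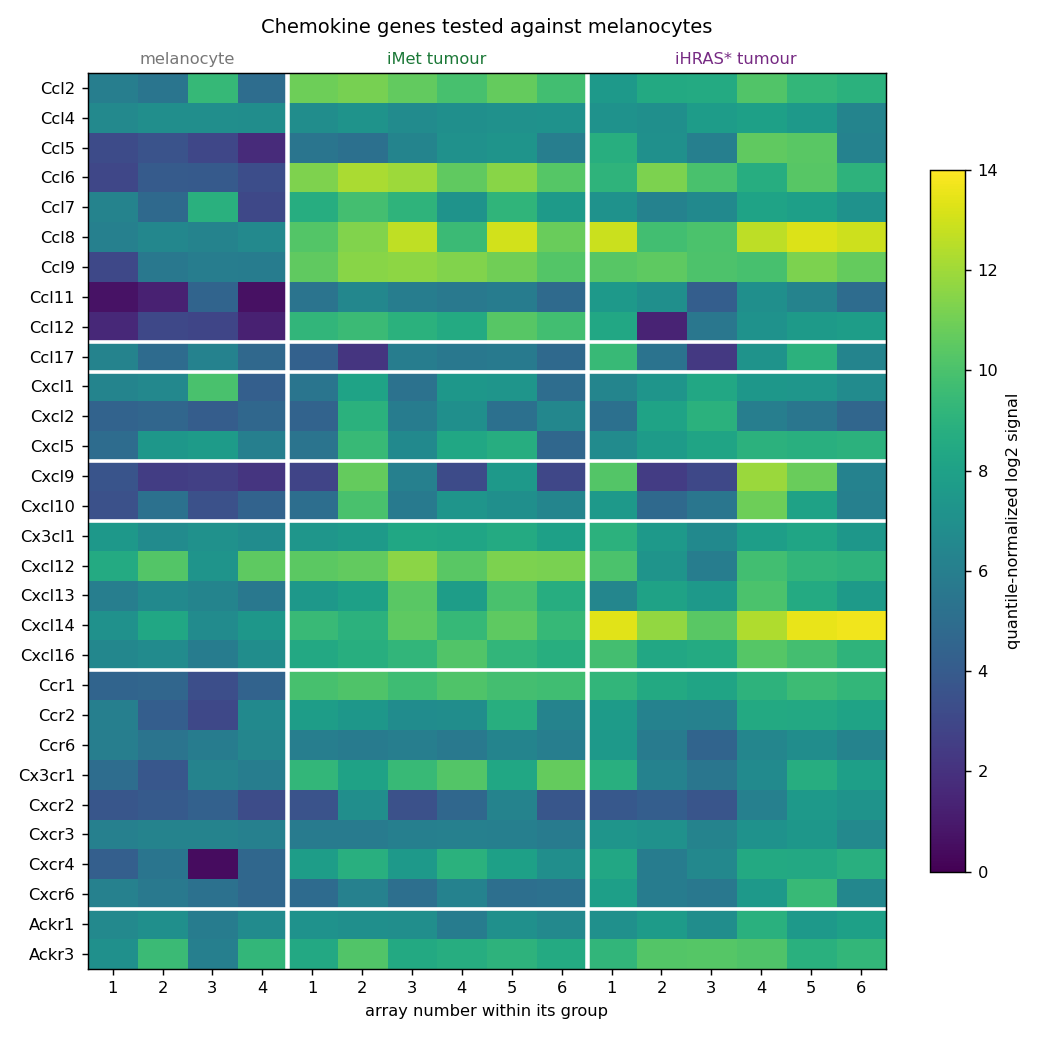
Heat map of log2 signal (colour, 0 to 14) for the 30 chemokine genes tested against melanocytes (rows, grouped by role) on the 16 arrays (columns, 4 melanocyte, 6 iMet and 6 iHRAS*). Inflammatory CC ligands such as Ccl6, Ccl8 and Ccl9 are near or above 10 in most tumours and under 7 on every melanocyte array.

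Against melanocytes, 30 members passed the filter for signal (20 ligands and 10 receptors). In iMet tumours 16 of them rose and none fell by limma at a Benjamini-Hochberg adjusted p under 0.05, with 16.4% of all 8651 genes tested rising and 18.7% falling. In iHRAS* tumours 19 rose and none fell, against 18.1% and 21.3% of all genes. At an unadjusted p under 0.05 none of the 30 fell in either comparison. A gene bright in melanocytes alone entered only if all 4 melanocyte arrays were above the cut-off. Ccl25 and Ackr4, above it on 3 and 2 melanocyte arrays and on no tumour array, were thus not tested. With no filter their differences in iHRAS* tumours were -1.29 and -2.48 (limma adjusted p = 0.00135 and 0.0303). The median difference of the 30 was 2.46 log2 units in iMet and 1.99 in iHRAS*, where that of all genes tested was -0.08 and -0.09. Of the 30, 12 had no melanocyte array above the cut-off and entered the test through the tumours alone, so that these counts describe the members that passed and are no evidence on all 53. Among the other 18, 9 rose in iMet and 10 in iHRAS* tumours. Both comparisons share the melanocyte arrays. Called in both were Ccl2, Ccl5, Ccl6, Ccl8, Ccl9, Ccl11, Ccl12, Cxcl13, Cxcl14, Cxcl16, Ccr1, Ccr2, Cx3cr1 and Cxcr4. Called in the iMet comparison and not in the other were Ccl7 and Cx3cl1, and in the iHRAS* comparison and not in the other Cxcl10, Cxcr3, Cxcr6, Ackr1 and Ackr3. Of these 7 only Ccl7 and Cxcr3 passed the test between the models, and Cxcr6 was too dim for it.

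Between the models, 24 members were tested, and 7 were higher and 2 lower in iMet tumours, where 11.2% of all 8058 genes were called higher and 9.70% lower. The higher genes were Ccl2, Ccl6, Ccl7, Ccl12, Cxcl12, Ccr1 and Cx3cr1, and the lower ones Cxcl14 and Cxcr3. As a whole the 24 leaned neither way, with 11 above and 13 below 0 and a median difference of -0.22, against 0.03 for all genes tested. The ranges of the groups did not overlap for 3 genes higher in iMet (Ccl12, Cxcl12 and Ccr1, against 5.83% of all genes) and 1 lower (Cxcr3, against 4.89%). Cxcr3 had no iMet array above the cut-off, so the filter admitted it only with all 6 iHRAS* arrays above it. Its lack of overlap was thus fixed by the filter and is no evidence.

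**Figure D2:**
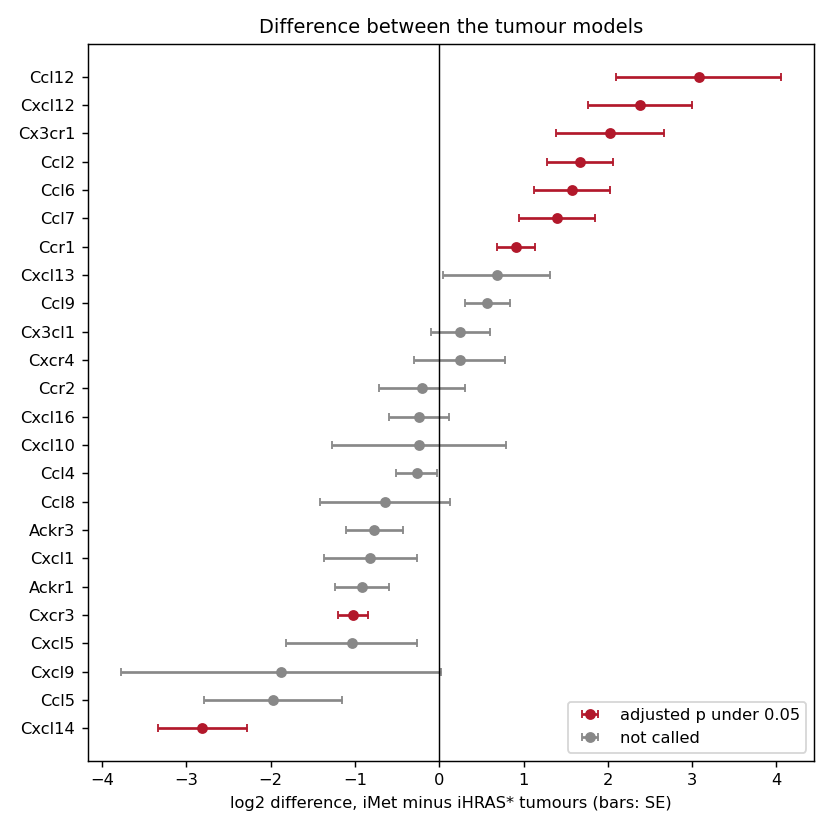
Difference in log2 signal, iMet minus iHRAS* tumours (x axis, points with standard errors), for the 24 chemokine genes tested between the models (y axis). Ccl12 lies farthest to the right at 3.08 and Cxcl14 farthest to the left at -2.81.

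Of 11 inflammatory CC ligands 9 were tested against melanocytes, and 8 rose in iMet and 7 in iHRAS* tumours, with median differences of 4.03 and 4.36. Of all genes tested, 16.4% and 18.1% rose. Ccl5, Ccl6, Ccl9, Ccl11 and Ccl12 had no melanocyte array above the cut-off and entered the test through the tumours, where they were high. These counts thus describe the ligands that passed the filter. Between the models 4 of the 8 tested were higher in iMet and none lower, against 11.2% and 9.70% of all genes. Ccl2, Ccl7 and Ccl12 are ligands of Ccr2, and Ccl2, Ccl7, Ccl11, Ccl12, Ccl8 and Ccl1 follow each other on chromosome 11 in the RefSeq gene order.

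Ccl12 was at 1.61, 3.02, 2.95 and 1.28 on the 4 melanocyte arrays. It ranged from 8.57 to 10.36 in iMet tumours (median 9.38) and from 1.42 to 8.42 in iHRAS* tumours (median 7.37). Every iMet tumour stood above every iHRAS* tumour, and 1 iHRAS* array, number 2 at 1.42, was as low as melanocytes. The difference between the models was 3.08 ± 0.98 (SE; 8.46-fold; limma adjusted p = 0.042). Removing iHRAS* array 3, iHRAS* array 4 or a single iMet array, whichever of the 6, ended that call (differences of 2.89 to 3.25; adjusted p of 0.0539 to 0.080). Without iHRAS* array 2 the call held, and the difference was the smallest with 1 array left out, at 2.1. With every value under 6.21 raised to 6.21, the difference was 2.17 (adjusted p = 0.00261). Its difference from melanocytes was 7.18 ± 1.02 in iMet (adjusted p = 0.000103) and 4.10 ± 1.02 in iHRAS* (adjusted p = 0.0056), and the latter fell to 1.02 (adjusted p = 0.058) with values raised to the cut-off.

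Ccl2, the main ligand for monocyte recruitment, was at 6.01, 5.45, 9.38 and 5.02 on the melanocyte arrays. In iMet tumours it ranged from 9.74 to 11.14 (median 10.65) and in iHRAS* tumours from 7.52 to 10.21 (median 8.73). Melanocyte array 3 stood within the tumour range, and the models overlapped. Ccl2 was higher in iMet than iHRAS* tumours by 1.67 ± 0.39 (3.18-fold; limma adjusted p = 0.0108), a call that held with each array left out and was lost in a fit of all 16 arrays (adjusted p = 0.0702). Its rise over melanocytes was 4.03 ± 0.69 in iMet and 2.37 ± 0.69 in iHRAS* tumours. The latter fell to 1.88 and 2.03 without melanocyte array 2 or 4 (adjusted p of 0.0548 to 0.0566). Without both of these arrays it was 1.14 (adjusted p = 0.294).

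Ccl7, a second ligand of Ccr2 that also binds Ccr1 and Ccr3, varied widely in melanocytes, from 3.04 on array 4 to 8.91 on array 3. It ranged from 7.21 to 9.79 in iMet and from 6.19 to 8.11 in iHRAS* tumours. The models differed by 1.40 ± 0.45 (limma adjusted p = 0.0444), which was lost at 1.17 to 1.40 (adjusted p of 0.0712 to 0.0886) on leaving out iMet 1, 2, 3 or 5, or iHRAS* 1, 2, 3 or 6. Its rise over melanocytes was 2.85 ± 0.85 in iMet tumours (adjusted p = 0.017) and was lost without melanocyte array 2 or 4, at 1.94 to 2.53 (adjusted p of 0.0569 to 0.0645). Without both of these arrays it was 1.02 (adjusted p = 0.346). In iHRAS* tumours it was 1.44 ± 0.85 (adjusted p = 0.188), which became 2.5 (adjusted p = 0.00979) without melanocyte array 3 and 0.54 (adjusted p = 0.608) without melanocyte array 4.

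Ccl6 and Ccl9, made by myeloid cells and binding Ccr1, were dim on every melanocyte array and strong in every tumour. Ccl6 was at 2.97, 4.02, 3.95 and 3.32 in melanocytes, from 10.32 to 12.24 in iMet (median 11.40) and from 8.74 to 11.22 in iHRAS* tumours (median 9.56). Its difference from melanocytes was 7.75 ± 0.48 in iMet tumours (limma adjusted p = 2.57e-08), and 5.11 once values were raised to the cut-off. Between the models Ccl6 differed by 1.57 ± 0.45 (2.97-fold; adjusted p = 0.0268). This call was lost at 1.37 to 1.57 (adjusted p of 0.0503 to 0.061) once iMet 1, 2, 3 or 5, or iHRAS* 1, 4 or 6, was removed. Ccl9 averaged 11.05 ± 0.53 (SD) in iMet and 10.48 ± 0.47 in iHRAS* tumours, against 5.12 ± 1.41 in melanocytes, and the models differed by 0.57 ± 0.27 (SE; adjusted p = 0.152).

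Ccl8, a ligand of Ccr8 and other CC receptors in mice, was at 6.12, 6.50, 6.26 and 6.57 in melanocytes, and ranged from 9.52 to 13.06 in iMet and from 9.76 to 13.24 in iHRAS* tumours. No tumour overlapped the melanocytes, and the models covered the same range. Its rise was 4.91 ± 0.78 in iMet (limma adjusted p = 0.000255) and 5.55 ± 0.78 in iHRAS* tumours (adjusted p = 8.99e-05), with a difference between the models of -0.64 ± 0.77 (adjusted p = 0.591). Ccl8 thus did not pass the test that its neighbours Ccl2, Ccl7 and Ccl12 passed.

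Ccl5, made by T cells, NK cells and macrophages, was at 3.20, 3.57, 2.98 and 1.74 in melanocytes. It ranged from 5.19 to 7.26 in iMet and from 6.07 to 10.60 in iHRAS* tumours. iHRAS* arrays 1, 4 and 5 stood above all iMet arrays at 8.79, 10.60 and 10.44, and the other 3 within the iMet range. The difference between the models was -1.97 ± 0.82 (limma adjusted p = 0.105). Over melanocytes Ccl5 rose by 5.31 ± 0.86 in iHRAS* and 3.34 ± 0.86 in iMet tumours, and the latter was 0.34 (adjusted p = 0.759) with values raised to the cut-off; 3 of 6 iMet arrays were dim.

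Ccl11, the eosinophil attractant eotaxin, was mostly dim. It was under the cut-off on all melanocyte and 5 of 6 iMet arrays, and above it on 4 of 6 iHRAS* arrays. Its differences from melanocytes were 3.92 in iMet and 4.36 in iHRAS* tumours. With values raised to the cut-off they became 0.04 (limma adjusted p = 0.903) and 0.47 (adjusted p = 0.0935). Ccl4, an attractant of macrophages and T cells, was above the cut-off on all 16 arrays at means of 6.81, 7.01 and 7.28 in melanocytes, iMet and iHRAS* tumours and passed no test. Its difference of 0.47 between iHRAS* tumours and melanocytes was called at 0.66 (adjusted p = 0.0134) without iHRAS* array 6. Ccl3 and Ccl24 were too dim to test. The macrophage marker mean was higher in iMet than iHRAS* tumours by 0.87 (exact permutation p = 0.0195, two-sided, adjusted over 33 tests to 0.0306; 3 of 14 marker genes called higher by limma), and ranged from 10.25 to 10.83 and from 8.54 to 10.40. The macrophage difference between the group means had the same direction as those of Ccl2, Ccl6, Ccl7 and Ccl12. Its part in their differences was not tested.

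**Figure D3:**
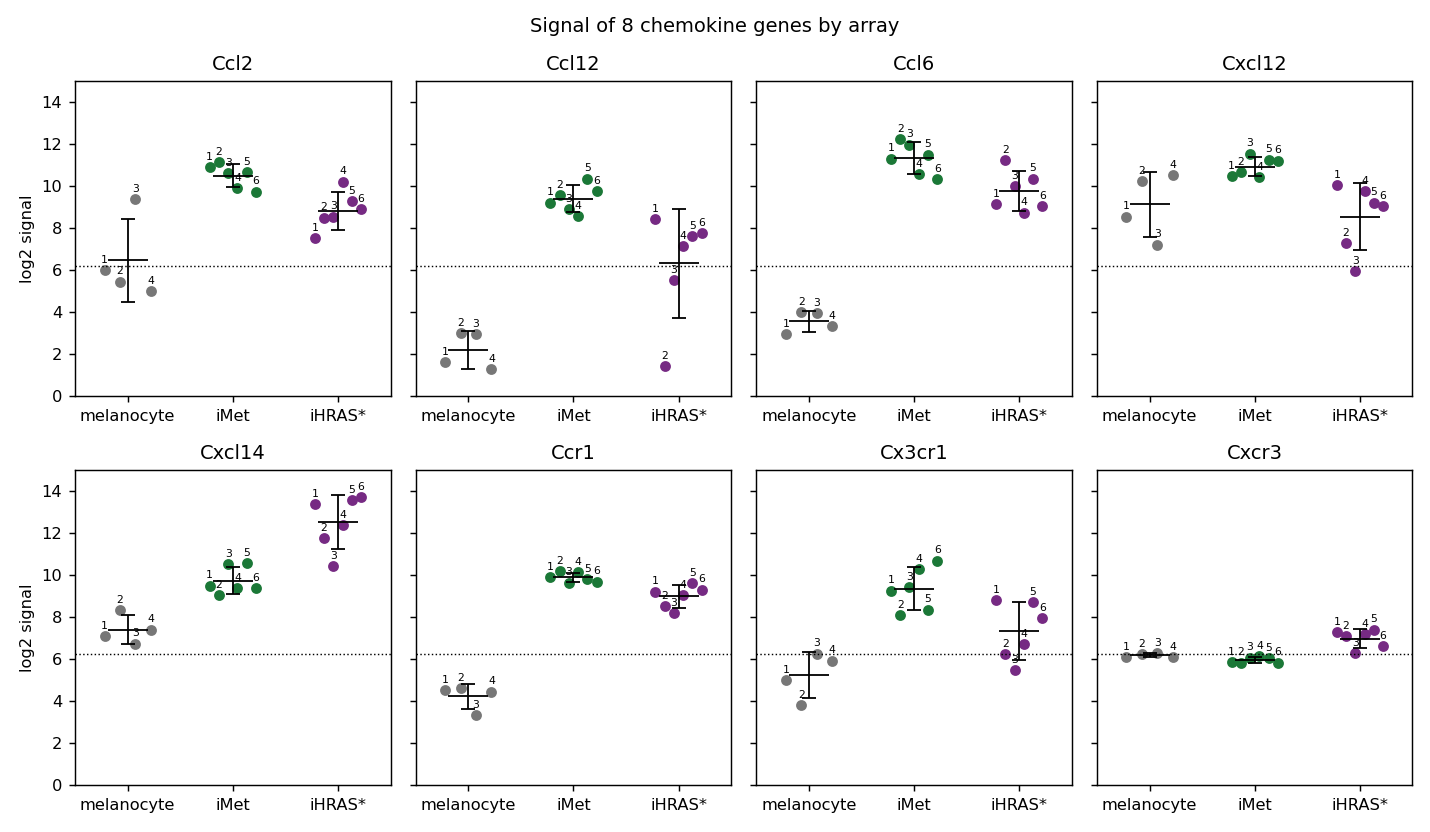
Log2 signal (y axis) of Ccl2, Ccl12, Ccl6, Cxcl12, Cxcl14, Ccr1, Cx3cr1 and Cxcr3 by group (x axis), with 1 point per array, bars for the mean ± SD and a dotted line at the dim cut-off of 6.21. Ccl12, Cxcl12 and Ccr1 in iMet tumours lie above every iHRAS* tumour, and Cxcr3 lies below every one. For Cxcr3 the filter for signal fixed this in advance.

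Cxcl12 and Cxcl14 moved in opposite directions between the models. Cxcl12, the stromal ligand of Cxcr4 and Ackr3, was at 8.55, 10.23, 7.22 and 10.54 in melanocytes. It lay between 10.44 and 11.55 in iMet (median 10.93) and between 5.95 and 10.05 in iHRAS* tumours (median 9.13). Every iMet tumour exceeded every iHRAS* tumour, and melanocytes spanned both groups. The models differed by 2.38 ± 0.62 (5.21-fold; limma adjusted p = 0.0168), a call kept with each array left out and in every other alternative tried. Neither model passed the test against melanocytes, at 1.80 ± 0.76 in iMet (adjusted p = 0.0802; 2.26 and 0.0463 without melanocyte array 4) and -0.59 ± 0.76 in iHRAS* tumours (adjusted p = 0.566). A second Cxcl12 probe set differed by 1.45 between the models and by 2.53 and 1.07 from melanocytes, so that the sign in iHRAS* tumours against melanocytes depends on the probe set.

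Cxcl14, a ligand abundant in skin epithelium, was at 7.09, 8.32, 6.73 and 7.39 in melanocytes. It ranged from 9.02 to 10.55 in iMet (median 9.43) and from 10.41 to 13.71 in iHRAS* tumours (median 12.87). One iHRAS* array, number 3 at 10.41, lay within the iMet range, and the other 5 above it. Cxcl14 was lower in iMet tumours by 2.81 ± 0.53 on the log2 scale (7.00-fold; limma adjusted p = 0.0036), a call kept under all alternatives. It rose over melanocytes in both models, by 2.33 ± 0.57 in iMet and 5.14 ± 0.57 in iHRAS* tumours. The call in iMet tumours was lost at 1.86 (limma adjusted p = 0.0808) without melanocyte arrays 1 and 3. Keratinocyte markers were lower in iMet than in iHRAS* tumours, at means of 7.31 (4.85 to 9.65) and 9.96 (8.81 to 11.06; exact permutation p = 0.0195, adjusted 0.0306), with 4 of 10 marker genes called lower, and none below the cut-off on all arrays of either model. Fibroblast markers averaged 11.59 and 12.05 (exact permutation p = 0.0476, adjusted 0.0683), with 1 of 8 marker genes called higher in iMet and 2 lower. Melanocyte markers were also lower in iMet than in iHRAS* tumours, at 5.45 (5.03 to 5.95) and 6.45 (5.77 to 7.41; exact permutation p = 0.00433, adjusted 0.0131), with 2 of 4 tested marker genes called lower and 5 and 1 of 8 at or below the cut-off on all arrays. Endothelial markers, by contrast, were higher in iMet, at 8.21 (7.62 to 9.17) against 7.28 (6.80 to 7.85; exact permutation p = 0.00866, adjusted 0.0196), with 7 of 10 marker genes called higher. The part of these cell types in the differences of Cxcl14 and Cxcl12 was not tested.

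Among the other ligands, Cxcl16, the membrane-bound partner of Cxcr6, rose to 9.10 ± 0.61 (SD) in iMet and 9.34 ± 0.75 in iHRAS* from 6.49 ± 0.42 in melanocytes, with no tumour inside the melanocyte range and a difference between the models of -0.24 ± 0.36 (SE; limma adjusted p = 0.682). Cxcl13, the B cell attractant that binds Cxcr5, averaged 8.72 ± 1.23 (SD) in iMet, 8.04 ± 1.20 in iHRAS* and 6.15 ± 0.44 in melanocytes. Both of its rises were called; that in iHRAS* tumours (1.90; adjusted p = 0.031) was lost at 1.5 to 1.95 without iHRAS* array 4 or 5 or melanocyte array 1, 3 or 4. Cxcr5 itself was too dim to test. Cx3cl1, the tethered ligand of Cx3cr1, differed by 1.00 ± 0.36 between iMet tumours and melanocytes (adjusted p = 0.0436), and 7 of 10 arrays ended that call when left out (iMet arrays 3 to 6 and melanocyte arrays 2 to 4; differences of 0.89 to 1.02). In iHRAS* tumours its difference was 0.75 (adjusted p = 0.112), and 0.98 (adjusted p = 0.0237) without iHRAS* array 3, and the models differed by 0.25 ± 0.35 (adjusted p = 0.646). Cxcl17 and Xcl1 were too dim.

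The neutrophil-attracting ligands of Cxcr2 passed no test. Cxcl1 was at 6.31, 6.52, 9.96 and 4.26 in melanocytes and averaged 6.43 ± 1.33 in iMet and 7.25 ± 0.69 in iHRAS* tumours. Cxcl5 averaged 6.52 in melanocytes, 7.21 in iMet and 8.25 in iHRAS* tumours, where all 6 arrays were above the cut-off. Cxcl2 was dim on every melanocyte array and reached 8.96 in iMet array 2 and 8.12 and 8.92 in iHRAS* arrays 2 and 3. The rises of Cxcl2 were 1.85 ± 0.87 and 1.92 ± 0.87 (limma adjusted p = 0.113 and 0.0931). Cxcl15 was not tested, and Cxcr2 was above the cut-off on 2 arrays of each model and none of the melanocytes. Neutrophil markers averaged 4.23 in melanocytes, 7.23 in iMet (5.58 to 10.21) and 6.22 in iHRAS* tumours (4.97 to 6.93).

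The ligands of Cxcr3 varied among tumours of the same model, and Cxcl9 had the widest spread of the tested members (SD of 3.17 in iMet and 4.12 in iHRAS* tumours). Cxcl9 read 10.27, 2.49, 3.01, 11.88, 10.81 and 6.22 on iHRAS* arrays 1 to 6. On iMet arrays 1 to 6 it read 2.85, 10.68, 6.09, 3.19, 7.6 and 3.0, and on melanocyte arrays 3.64, 2.54, 2.66 and 2.16. In each model some arrays stood far above and others within the melanocyte range, and the difference between the models was -1.88 ± 1.90 (limma adjusted p = 0.516). Against melanocytes Cxcl9 in iHRAS* tumours differed by 4.70 (adjusted p = 0.0651), and was called at 5.69 and 5.59 (adjusted p = 0.0249 and 0.0286) without iHRAS* array 2 or 3. Cxcl10 read 7.53, 4.78, 5.52, 10.91, 8.05 and 6.10 in iHRAS* tumours and 5.04 to 9.98 in iMet tumours (median 6.66). The iMet array with the highest Cxcl9, number 2, also had the highest Cxcl10. Cxcl10 differed from melanocytes by 2.98 ± 1.06 in iHRAS* (adjusted p = 0.0369) and 2.74 ± 1.06 in iMet tumours (adjusted p = 0.0569; 3.11 and 0.0411 without iMet array 1), and between the models by -0.24 ± 1.03 (adjusted p = 0.89). The rise in iHRAS* tumours was 1.31 (adjusted p = 0.238) with values raised to the cut-off, and its call was lost at 2.23 to 3.08 without iHRAS* array 1, 4 or 5 or melanocyte array 1, 3 or 4. Cxcl11 was too dim to test.

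Cxcr3, the receptor of these ligands on activated T and NK cells, was low throughout and higher in iHRAS* tumours. It was at 6.10, 6.24, 6.28 and 6.10 in melanocytes, from 5.82 to 6.12 in iMet (median 5.94) and from 6.28 to 7.39 in iHRAS* tumours (median 7.13). No iMet array was above the cut-off and all 6 iHRAS* arrays were, so that Cxcr3 entered the model comparison through the group where it was high. It was lower in iMet tumours by 1.02 ± 0.18 on the log2 scale (2.03-fold; limma adjusted p = 0.0025), under all alternatives in which it was tested. It rose over melanocytes in iHRAS* tumours by 0.79 ± 0.19 (adjusted p = 0.00394) and differed by -0.23 ± 0.19 in iMet tumours (adjusted p = 0.354). Cxcr6, the receptor of Cxcl16 on T and NKT cells, read 7.91, 5.86, 5.63, 7.55, 9.45 and 6.48 in iHRAS* tumours and stayed under the cut-off on every iMet and melanocyte array. Its rise over melanocytes in iHRAS* tumours was 1.73 ± 0.61 (adjusted p = 0.0346), lost at 1.27 to 1.81 without iHRAS* array 1, 4 or 5 or melanocyte array 2, 3 or 4, and at 1.09 (adjusted p = 0.0767) with values raised to the cut-off.

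T and NK cell markers averaged 3.24 in melanocytes (3.05 to 3.42), 3.89 in iMet (2.94 to 4.61) and 5.63 in iHRAS* tumours (3.57 to 7.15). The models differed by -1.74 (exact permutation p = 0.0303, adjusted 0.0455). All 12 markers were at or below the cut-off on every melanocyte array and 11 of 12 on every iMet array, against 1 in iHRAS* tumours. The marker mean on iHRAS* arrays 1 to 6 was 7.08, 4.51, 3.57, 6.43, 7.15 and 5.06. Arrays 1, 4 and 5, the highest here, were also those with the highest Cxcl9, Cxcl10, Ccl5, Cxcr6 and Ccl17, the last reading 9.41, 7.19 and 8.97. In iMet tumours, array 2 had the highest Cxcl9 (10.68) and Cxcl10 (9.98) but the lowest Ccl5 (5.19). Its T and NK cell marker mean was 3.54, within a group range of 2.94 to 4.61. Dendritic and Langerhans cell markers averaged 5.72 in iMet and 6.39 in iHRAS* tumours (exact permutation p = 0.195), and on iHRAS* arrays 1 to 6 they read 7.56, 4.94, 5.12, 6.67, 7.40 and 6.67. The part of T, NK and dendritic cells in the values of Cxcr3, Cxcr6, Ccl5, Cxcl9 and Cxcl10 was not tested.

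**Figure D4:**
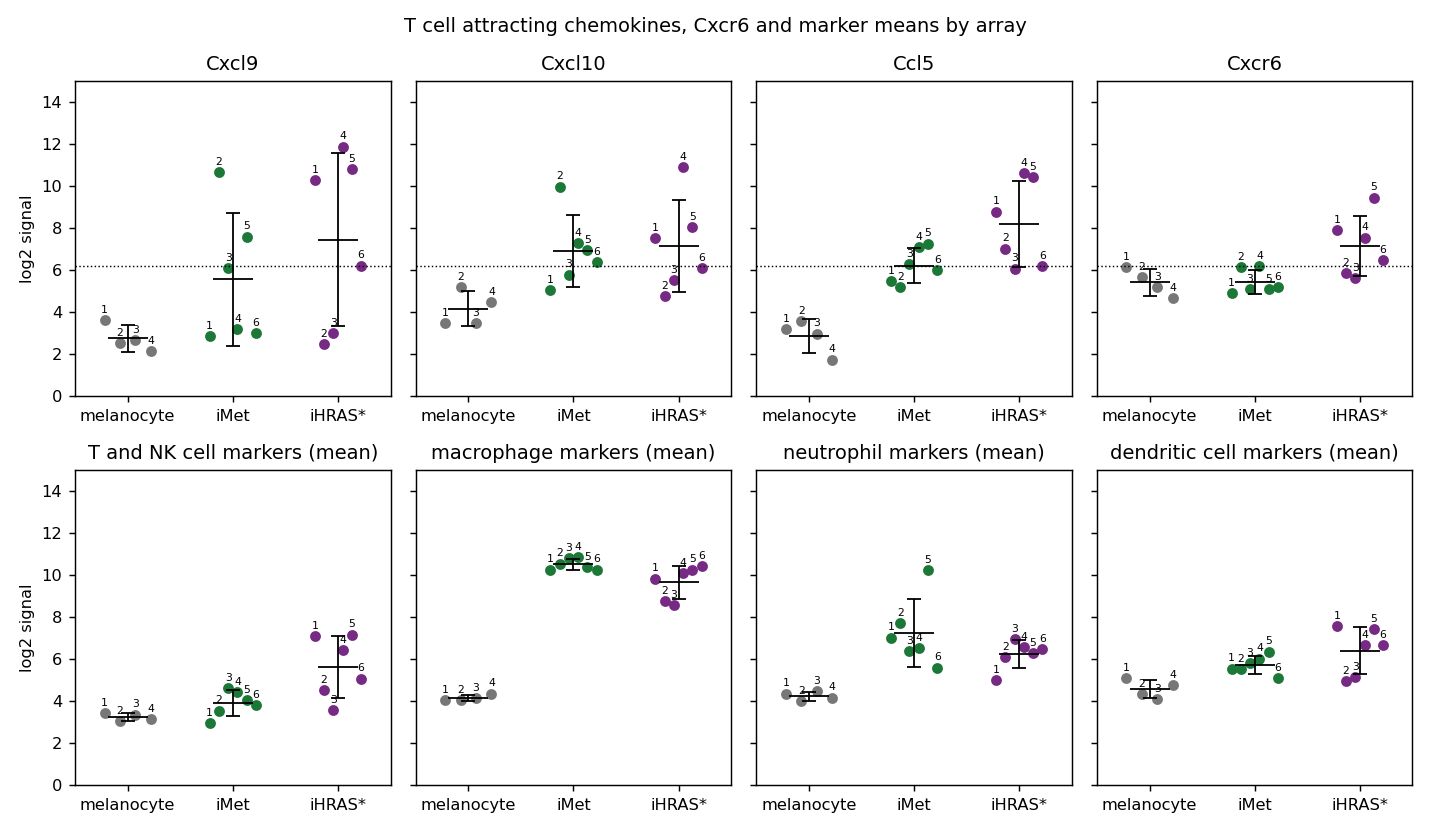
Log2 signal by array (y axes) of Cxcl9, Cxcl10, Ccl5 and Cxcr6 (top) and the mean log2 signal of T and NK cell, macrophage, neutrophil and dendritic cell markers (bottom), by group (x axes); numbers are array numbers and bars the mean ± SD. iHRAS* arrays 1, 4 and 5 are the highest of their group for Cxcl9 at 10.27, 11.88 and 10.81 and for T and NK cell markers at 7.08, 6.43 and 7.15.

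Of 17 conventional receptors 8 were tested against melanocytes, and 4 rose in iMet and 6 in iHRAS* tumours. Of all genes tested, 16.4% and 18.1% rose. No melanocyte array was above the cut-off for Ccr1, Cxcr2, Cxcr4 and Cxcr6, which entered the test through the tumours. Ccr1, a monocyte and macrophage receptor bound by Ccl5, Ccl6, Ccl7 and Ccl9, was at 4.50, 4.61, 3.34 and 4.44 in melanocytes. It lay from 9.63 to 10.17 in iMet (median 9.85) and from 8.16 to 9.62 in iHRAS* tumours (median 9.13), with no overlap among the 3 groups. The models differed by 0.91 ± 0.22 (1.88-fold; limma adjusted p = 0.0133), a call kept under every alternative. The macrophage marker mean differed by 0.87 in the same direction, as given above, and its part in the differences of Ccr1 and Cx3cr1 was not tested. The rises of Ccr1 over melanocytes were 5.66 ± 0.28 and 4.75 ± 0.28 (adjusted p = 1.70e-09 and 1.92e-08). Ccr1 is next to Ccr1l1 in a run of 6 receptor genes on chromosome 9, from Cxcr6 and Xcr1 to Ccr3 and Ccr2, of which Xcr1, Ccr1l1 and Ccr3 were too dim.

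Cx3cr1, the fractalkine receptor of resident macrophages and patrolling monocytes, was at 5.0, 3.78, 6.25 and 5.92 in melanocytes. It ranged from 8.07 to 10.68 in iMet (median 9.33) and from 5.47 to 8.81 in iHRAS* tumours (median 7.32). The models overlapped, with iHRAS* arrays 1 and 5 at 8.81 and 8.70 inside the iMet range. The difference of 2.03 ± 0.64 (4.09-fold; limma adjusted p = 0.0389) was lost at 1.67 to 2.05 (adjusted p of 0.0662 to 0.0782) in the absence of iMet 1, 3, 4 or 6, or of iHRAS* 2, 3 or 4. Without iHRAS* arrays 3 and 4, those with the lowest deposited medians, it was 1.43 (adjusted p = 0.14). In iMet tumours Cx3cr1 rose over melanocytes by 4.10 ± 0.72 (adjusted p = 0.000538), and in iHRAS* tumours by 2.07 ± 0.72 (adjusted p = 0.0323), the latter lost at 1.58 to 1.99 on removal of iHRAS* array 1, 5 or 6 or melanocyte array 1 or 2, and at 1.21 (adjusted p = 0.113) with values raised to the cut-off.

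Ccr2, the receptor of Ccl2 on inflammatory monocytes, averaged 7.32 ± 0.88 (SD) in iMet and 7.53 ± 1.08 in iHRAS* tumours against 4.98 ± 1.65 in melanocytes. It did not pass the test between the models (-0.21 ± 0.51 SE; limma adjusted p = 0.806), although its ligands Ccl2, Ccl7 and Ccl12 did. Its rise in iMet tumours of 2.34 was lost at 1.70 to 2.08 without melanocyte array 2 or 3. With values raised to the cut-off, the rises of Ccr2 were 1.01 in iMet (adjusted p = 0.14) and 1.23 in iHRAS* tumours (adjusted p = 0.0683), and neither was called. Cxcr4, the receptor of Cxcl12, averaged 7.99 ± 0.77 (SD) in iMet and 7.76 ± 1.23 in iHRAS* tumours and was at 4.25, 5.46, 0.49 and 4.67 in melanocytes. Its rises of 4.27 and 4.04 were 1.78 and 1.60 with values raised to the cut-off, and both stayed called. The models differed by 0.24 ± 0.54 (SE; adjusted p = 0.79), so that Cxcl12 passed the test between them and its receptor did not.

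Of 4 atypical receptors 2 were tested, and both rose in iHRAS* tumours and neither in iMet tumours. Of all genes tested, 18.1% and 16.4% rose. Neither receptor was called between the models in the main test. Ackr3, which takes up Cxcl12, was at 7.04, 9.56, 6.02 and 9.27 in melanocytes and averaged 8.91 ± 0.67 (SD) in iMet and 9.69 ± 0.63 in iHRAS* tumours. Its rise in iHRAS* tumours of 1.71 ± 0.60 (SE; limma adjusted p = 0.0348) fell to 1.06 without melanocyte array 3, and was also lost without melanocyte array 1 or iHRAS* array 2, 3 or 4 (1.06 to 1.62 in all; adjusted p of 0.0595 to 0.133). Without melanocyte arrays 1 and 3 together, the rise of Ackr3 in iHRAS* tumours was 0.27 (limma adjusted p = 0.686). Ackr1, the Duffy receptor of venules and red cells, averaged 7.67 ± 0.72 (SD) in iHRAS* tumours, 6.74 ± 0.46 in iMet and 6.55 ± 0.46 in melanocytes. It rose over melanocytes in iHRAS* tumours by 1.12 ± 0.35 (SE; adjusted p = 0.0198), which was lost at 0.90 without melanocyte array 3. The models differed by -0.92 for Ackr1 (adjusted p = 0.0596) and -0.77 for Ackr3 (adjusted p = 0.126). Ackr3 was called lower in iMet at -1.03 (adjusted p = 0.0249) without iMet array 2, and Ackr1 at -1.05 and -1.08 (adjusted p = 0.0456 and 0.0311) without iHRAS* array 1 or 3 and in the fit of all 16 arrays (adjusted p = 0.0493). The endothelial marker mean, given above, was higher in iMet tumours, and its part in the values of Ackr1 and Ackr3 was not tested.

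The remaining members were dim on most arrays. Tested in no comparison were 23 genes, 12 ligands and 11 receptors. Of the ligands of lymphoid and epithelial homing, Ccl1, Ccl20, Ccl22, Ccl25, Ccl27a and Ccl28 were not tested. Ccl17, a Ccr4 ligand, passed no test (1.07 ± 1.12 in iHRAS* tumours over melanocytes; limma adjusted p = 0.473). The receptors Ccr3, Ccr4, Ccr7, Ccr8, Ccr9, Ccr10, Ccr1l1, Cxcr5, Xcr1, Ackr2 and Ackr4 were not tested, and Ccr6 passed no test. Ccl22 and Ccr7, markers of mature dendritic cells, were above the cut-off on 3 of 6 iHRAS* arrays each and on none of the others. Ccl1, Ccl3 and Cxcl11 were above it on 2 iHRAS* arrays each and on no other. Ccl25 and Ackr4 were instead above it on 3 and 2 of 4 melanocyte arrays and on no tumour array. Ccr9, Xcl1 and Xcr1 passed it on 1 iHRAS* array each, Cxcl17 on 1 melanocyte array, and Ccl27a on 1 array of each group.

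Other genes of the pathway were read from lists chosen with earlier results known, and their counts stand against the shares of all genes tested given above: 11.2% higher and 9.70% lower between the models, 16.4% and 18.7% for iMet and 18.1% and 21.3% for iHRAS* tumours against melanocytes. Pf4, the platelet chemokine Cxcl4 whose symbol lies outside the rule, rose by 4.98 ± 0.37 in iMet and 3.78 ± 0.37 in iHRAS* tumours, and was higher in iMet by 1.20 ± 0.34 (limma adjusted p = 0.0268); it was the 1 of 4 tested in its list called between the models. In the migration signalling list, of kinases, Rac regulators and leukocyte integrin genes, 11 of 13 rose in iMet and 12 of 13 rose and 1 fell in iHRAS* tumours, and none of 13 was called between the models. Coro1a, an actin regulator of leukocytes, rose by 7.84 ± 0.69 in iMet tumours. Of 13 inducers of chemokine transcription, 8 rose in iMet and 9 in iHRAS* tumours and none fell. Among them the interferon-gamma receptor gene Ifngr1 rose by 1.53 ± 0.25 and 1.42 ± 0.25, and the NF-kappaB inhibitor gene Nfkbia by 1.12 ± 0.23 and 1.40 ± 0.23. Rela, an NF-kappaB subunit, was lower in iMet than iHRAS* tumours by 0.40 ± 0.12 (adjusted p = 0.0281).

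Of 13 receptor coupling genes, 2 were lower in iMet than iHRAS* tumours, the inhibitory G protein gene Gnai1 (-1.76 ± 0.47; limma adjusted p = 0.0207) and the arrestin gene Arrb1 (-0.88 ± 0.23; adjusted p = 0.0175), and none higher, where 9.70% of all genes tested were lower. Arrb1 rose over melanocytes in both models, by 1.14 ± 0.24 and 2.02 ± 0.24. Among 8 genes of chemokine cleavage and presentation, the heparan sulfate polymerase gene Ext1 was higher in iMet (1.16 ± 0.17; adjusted p = 0.00068), and the syndecan gene Sdc1 (-1.17 ± 0.17; adjusted p = 0.000862) and the sheddase gene Adam10 (-0.58 ± 0.10; adjusted p = 0.00188) were lower. Mmp9, which trims several chemokines, rose over melanocytes by 3.48 ± 0.61 in iMet and 2.08 ± 0.61 in iHRAS* tumours.

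Where a called member had further probe sets, they agreed in sign. Of the called results, 23 belonged to genes with another probe set, and none of their 26 other probe sets gave the opposite sign. The probe set of Ackr3 (type _s_at) can match several transcripts of related genes.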

How the data were processed

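Total RNA of 16 mouse samples was hybridised to Affymetrix M430A_2 arrays. The deposited table holds log2 values of the authors for 22690 probe sets (from -4.07 to 14.53). Their summarisation and normalization are not given in the sources used here; array medians ran from 6.56 to 7.28. Because these medians spread by more than 0.3, the 22626 probe sets that are no controls were quantile-normalized. Signals under 0 or near background have no reliable order, and the number of arrays limits the precision.

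Probe sets were named from the platform annotation (20380 with 1 symbol, 691 with several, 1555 with none), so the Ccl21 probe set, which has several symbols, is outside the rule. Genes entered a test when brighter than 6.21 on at least 6 arrays between the models (8058 genes, fit of 12 tumour arrays) or 4 against melanocytes (8651 genes, fit of all 16). limma 3.58.1 in R 4.3.3 (lmFit, eBayes, two-sided) was used with Benjamini-Hochberg adjustment over all genes tested, and its spread is shared across genes. Fold changes are of quantile-normalized log2 values. The script was tested on simulated data. Every member called was named, and up to 4 genes of each pathway list with the smallest p. The members and lists were chosen with earlier results of these data known. Marker lists were averaged per array and compared by exact permutation. Alternatives tried were other scaling, filters, probe set rules, fits, a replicate block and left-out arrays. The labels do not say that equal replicate numbers pair the samples, and the main tests used no pairing.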

Additional observations from a re-analysis of the deposited data

Results flagged for a closer look

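In 90 groups of 4 to 6 arrays (30 members in 3 groups), 5 held an array apart from the rest by Dixon's 95% critical value, where chance gives about 1 in 20. Ackr3 was at 10.2 on iMet array 2, next to 9.05. On melanocyte array 1, Ccl4 was at 6.59, next to 6.85, and Ccl9 at 3.02, next to 5.62. On melanocyte array 3, Ccr1 was at 3.34, next to 4.44, and Ccl11 at 4.50, next to 1.28. Of these, Ccl9, Ccr1 and Ccl11 were under the cut-off on all melanocyte arrays.

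For 2 genes called between the models, the fitted differences from melanocytes had opposite signs, of which the negative ones did not pass the test. Cxcl12 lay 1.80 above melanocytes in iMet and at -0.59 in iHRAS* tumours, a difference between the models of 2.38 (limma adjusted p = 0.0168). The iHRAS* value had an adjusted p of 0.566 and was 1.07 by the second Cxcl12 probe set. Cxcr3 lay at -0.23 in iMet and 0.79 above melanocytes in iHRAS* tumours, a difference of -1.02 (limma adjusted p = 0.0025), and the iMet value had an adjusted p of 0.354.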

How the results depend on the processing

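No called difference of a member changed sign under any alternative. Of 9, 16 and 19 calls (iMet against iHRAS*, iMet against melanocytes, iHRAS* against melanocytes), 4, 10 and 9 were kept in all alternatives. Between the models the count of higher genes (7) was 4 with no filter on dim genes, 4 with a replicate block, 3 without iHRAS* arrays 3 and 4 (chosen after seeing the data) and 3 to 7 with 1 array left out. The count of lower genes (2) was 1 with the 50th percentile filter, 4 in the fit of all 16 arrays and 2 to 3 with 1 array left out. With no filter, 1 gene was lower in iMet than in melanocytes (Ccl25) and 3 in iHRAS* (Ackr4, Ccl24 and Ccl25), where none was called otherwise. With 1 array left out, 13 to 17 genes were higher in iMet and 15 to 20 in iHRAS* tumours than in melanocytes. Without melanocyte arrays 1 and 3, those with the higher fibroblast marker means, 13 were higher in each model. Without melanocyte arrays 2 and 4, 15 were higher in iMet and 14 in iHRAS* tumours. The replicate block ended the calls of Ccl12 (limma adjusted p = 0.0587), Ccl7 (0.117) and Cx3cr1 (0.058) between the models, and brought those of Cxcl2 over melanocytes (2.31 and 2.38; 0.0457 and 0.0363). Same-numbered arrays of the models correlated at -0.231 to 0.136, over 0.1 in 2 of 6 pairs. In those 2 pairs, numbers 5 and 6, the same number was the best match. Such correlations cannot decide whether equal numbers shared a litter or day, which the labels do not say. The cause of the changes between the alternatives was not tested. Signals near background limit the size of differences from melanocytes, as the values raised to the cut-off show.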
